A study of Mus musculus with 6 samples.

Results

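Type 2 and related cytokine genes of T lymphocytes were followed together with Gata3 in γδ T cells, the lymphocytes whose antigen receptor is made of γ and δ chains. The set was given by gene symbol as Il4, Il5, Il13, Il9, Il10, Il3, Csf2 and Gata3, and all 8 genes have a row among the 19390 genes counted. The genes were chosen by function but with their KO against WT values in these libraries known, so those values are given as a description, without a test. Of the 8 genes, 5 had enough counts to enter the fit over all genes (Il13, Il10, Il5, Csf2 and Gata3), and 3 did not (Il4, Il9 and Il3).

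RNA was sequenced from spleen γδ T cells that flow cytometry had sorted out of mice aged 6 weeks. The 3 libraries labelled WT came from mice with floxed Usf3 alleles (USF3-f/f), and the 3 labelled KO from mice with the same floxed alleles and CD2-cre, a transgene that drives Cre recombinase in lymphoid cells. Both groups carry the floxed alleles and only the KO group carries CD2-cre, so the transgene and the deletion cannot be told apart. The labels do not name the floxed exons, pooling of animals, separate animals behind the replicates, or any culture of the cells, so p-values measure only the spread between these libraries.

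Type 2 cytokines are the signals of responses to worms and of allergy: IL-4 and IL-13 act through receptors that share the IL-4 receptor α chain and the factor STAT6, IL-5 supports eosinophils, and IL-9 acts on mast cells. GATA3 is the zinc-finger transcription factor that T helper 2 cells need to express Il5 and Il13 and to keep the Il4 locus open, and it is also needed earlier, for T cell development. IL-3 and GM-CSF, the product of Csf2, act on myeloid cells through receptors with a common β chain, and IL-10 restrains inflammation and is made by many T cell types. Subsets of γδ T cells are known to make type 2 cytokines, among them cells that express the factor PLZF (Zbtb16).

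Libraries held 34644862 to 35806402 counts, and 1 count was worth 0.0279 to 0.0288 CPM, the usual unit of counts scaled to library size. Counts of Usf3 over the whole gene were 2499 to 2593 in WT-labelled and 2348 to 2532 in KO-labelled libraries, ranges that overlap, and with the floxed exons unknown they do not check the labels. The T cell identity of the sort was checked with 9 T cell marker genes, all of them tested, which summed to 2232 to 2277 CPM in WT-labelled and 2107 to 2184 in KO-labelled libraries. Of these, 4 were lower by edgeR (Cd3g, Cd3d, Cd3e and Cd2) and 1 was higher (Cd5), where 10.1% of all tested genes were lower and 7.23% higher. All of them except Cd3g were named after their values were seen. Cd3g stood at 382 ± 7.07 CPM in WT-labelled and 340 ± 10.7 in KO-labelled libraries (SD, n = 3 each; edgeR adjusted p = 5.91e-05), and Cd4 at 0.522 ± 0.230 and 0.463 ± 0.106. The part of this shift in the values below was not tested. The genes of the γ and δ receptor chains on the marker list were not analysed here. Between labels, 2219 of 12810 tested genes (17.3%) passed the threshold, a Benjamini-Hochberg adjusted p of edgeR's quasi-likelihood test below 0.05. Higher in KO-labelled libraries were 926 of them and lower 1293.

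Il13 was higher in KO-labelled libraries, with the largest difference among the 5 genes of the set that entered the fit. IL-13 drives mucus production and alternative activation of macrophages. Counts of Il13 numbered 59, 83 and 54 across WT replicates 1 to 3 and reached 275, 270 and 226 across KO replicates 1 to 3. All 3 KO-labelled libraries lay above all 3 WT-labelled ones. As CPM the level was 1.86 ± 0.460 in WT-labelled and 7.29 ± 0.697 in KO-labelled libraries (SD, n = 3 each), a fitted log2 fold change of 1.97 ± 0.177 (SE), or 3.92-fold. The fold change lay between 1.85 and 2.19 (log2) when each library in turn was left out. The spread between WT-labelled libraries, a coefficient of variation of 24.7%, was wider than the 12.4% that counting error gives at a mean of 65.3 counts. In bulk RNA, more cells that express Il13 and more Il13 RNA per cell cannot be told apart.

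Il4, which lies next to Il13 in the genome and is often expressed with it in T helper 2 cells, was near the limit of detection. It had 3, 2 and 3 counts across WT replicates 1 to 3 and 4, 4 and 3 across KO replicates 1 to 3. The sums were 8 counts in WT-labelled libraries (exact Poisson 95% interval 3.45 to 15.8) and 11 in KO-labelled ones (5.49 to 19.7). After scaling for depth the KO to WT ratio was 1.37, with a counting interval from 0.503 to 3.93, so a 3.92-fold difference like that of Il13 lay just inside the interval. These intervals cover counting error only.

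Il5, the eosinophil cytokine gene, was at a similarly low level, with 8, 13 and 13 counts across WT replicates 1 to 3 and 15, 10 and 5 across KO replicates 1 to 3. The labels overlapped, and KO-labelled libraries held both the highest and the lowest value. The fitted log2 fold change was -0.18 ± 0.529 (SE), and it moved to 0.13 without KO replicate 3. The ratio of summed counts, 0.881, had a counting interval from 0.521 to 1.48, which does not reach the 3.35 at the lower end of the same interval for Il13. Il9 had 1 count in KO replicate 1 and 0 in each of the other 5 libraries; 3 counts, the limit that a count of 0 allows, correspond to 0.0838 to 0.0863 CPM per library.

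The 250 bases upstream of the annotated start are shown for Il13, for 1 of the 2 promoters of Il4, and for the cluster genes Il3 and Csf2. Those of Il13, Il3 and Csf2 hold the GATA sequence AGATAA, and that of Il4 lacks it. The promoters of Il5, Il9 and Gata3, which are not shown, lack it too. A link between this sequence and the values of the genes was not tested. Sequences are from RefSeq on build GRCm38.p6, all on the minus strand and printed 5′ to 3′, at chr11:53634703-53634952 for Il13, chr11:53618666-53618915 for Il4, chr11:54267280-54267529 for Il3 and chr11:54249900-54250149 for Csf2; capitals mark AGATAA or TGATAA on either strand.
Il13: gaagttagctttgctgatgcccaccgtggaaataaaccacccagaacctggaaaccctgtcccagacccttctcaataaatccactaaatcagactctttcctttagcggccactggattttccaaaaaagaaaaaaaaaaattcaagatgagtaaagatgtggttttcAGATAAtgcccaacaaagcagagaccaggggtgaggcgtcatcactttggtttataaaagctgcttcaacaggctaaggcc
Il4: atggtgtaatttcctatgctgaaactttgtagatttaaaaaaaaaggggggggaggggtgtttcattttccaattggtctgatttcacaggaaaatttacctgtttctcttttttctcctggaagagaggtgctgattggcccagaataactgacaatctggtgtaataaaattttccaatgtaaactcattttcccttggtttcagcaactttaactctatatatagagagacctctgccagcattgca
Il3: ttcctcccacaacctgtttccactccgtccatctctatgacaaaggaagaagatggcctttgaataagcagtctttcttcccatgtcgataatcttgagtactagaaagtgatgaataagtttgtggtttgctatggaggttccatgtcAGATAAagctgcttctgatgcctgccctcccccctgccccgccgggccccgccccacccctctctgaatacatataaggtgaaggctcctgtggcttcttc
Csf2: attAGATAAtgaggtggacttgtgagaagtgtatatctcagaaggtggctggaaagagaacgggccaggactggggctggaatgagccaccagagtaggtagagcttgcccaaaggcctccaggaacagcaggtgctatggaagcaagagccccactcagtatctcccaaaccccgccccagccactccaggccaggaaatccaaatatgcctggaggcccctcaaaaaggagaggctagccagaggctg

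RefSeq promoters of 300 bases, from 250 before to 50 after the start, were found for 7 of the 8 genes, with 2 promoters for Il4, and Il10 was not matched. AGATAA, searched on both strands, occurred in 3 of these 8 promoters, those of Il13, Il3 and Csf2, and in 11.2% of all 32851 promoters of the same length. In the Il13 promoter it began at position -81 from the start, in that of Il3 at -101 and in that of Csf2 at -247. TGATAA was found in 1 of the 8, an Il4 promoter, beginning 15 bases after the start and so outside the stretch shown, against 9.05% of all promoters. CACGTG, the E-box that USF proteins bind, was found in 0 of the 8 and in 7.15% of all promoters, and the wider E-box CANNTG, which includes CACGTG, in 5 of 8 and in 72.3% of all. GGAAA, the core of NFAT sites, was found in 8 of 8 and in 61.3% of all promoters on either strand. These are matches of letters in a short window and say nothing of binding.

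Gata3 itself differed little between the labels. Gata3 counts were 1009, 923 and 951 across WT replicates 1 to 3, and KO replicates 1 to 3 had 1060, 1045 and 969. The third of these is inside the WT range and the other two exceed it. The level was 27.3 ± 0.936 CPM in WT-labelled and 29.1 ± 1.15 in KO-labelled libraries (SD, n = 3 each), with a log2 fold change of 0.090 ± 0.060 (SE), or 1.06-fold. At 961 counts the counting error alone amounts to 3.23% of the mean, and the WT-labelled libraries spread by 3.43%. Gata3os and Gata3un, noncoding genes named after Gata3, had at most 5 counts in any library; strand use in the counting was not given in the sources.

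Il10 differed in the opposite direction to Il13. The 3 WT replicates held 1165, 1117 and 1177 counts of Il10, and the 3 KO replicates 683, 746 and 703. All KO-labelled libraries lay below all WT-labelled ones. The level was 32.8 ± 0.685 CPM in WT-labelled and 20.2 ± 0.702 in KO-labelled libraries (SD, n = 3 each), a log2 fold change of -0.70 ± 0.061 (SE), or 0.615-fold. The measured coefficients of variation, 2.09% and 3.48%, were no wider than the 2.95% and 3.75% of counting error.

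Csf2 and Il3 are neighbours in the same cluster as Il13. Csf2 had 84, 71 and 72 counts across WT replicates 1 to 3 and 90, 98 and 87 across KO replicates 1 to 3, or 2.15 ± 0.182 and 2.60 ± 0.122 CPM (SD, n = 3 each). The KO-labelled libraries lay just above the WT-labelled ones, with a log2 fold change of 0.27 ± 0.212 (SE). Il3 had 1, 1 and 5 counts in the WT replicates and 15, 3 and 13 in the KO replicates, in the order 1, 2 and 3. KO replicate 2 fell within the WT range and the other two KO-labelled libraries above it. The sums, 7 and 31 counts, gave a ratio of 4.42 with a counting interval from 1.91 to 11.9, which leaves out the spread between libraries. Il3 entered the fit when KO replicate 2 or a WT replicate was left out or the count filter was dropped. It passed the threshold only without KO replicate 2, at a fitted log2 fold change of 2.53. It was not past it without WT replicates 1, 2 and 3 in turn (1.74, 1.75 and 3.22) or without the filter (2.09). These calls are given as a description, without a test.

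**Figure D1:**
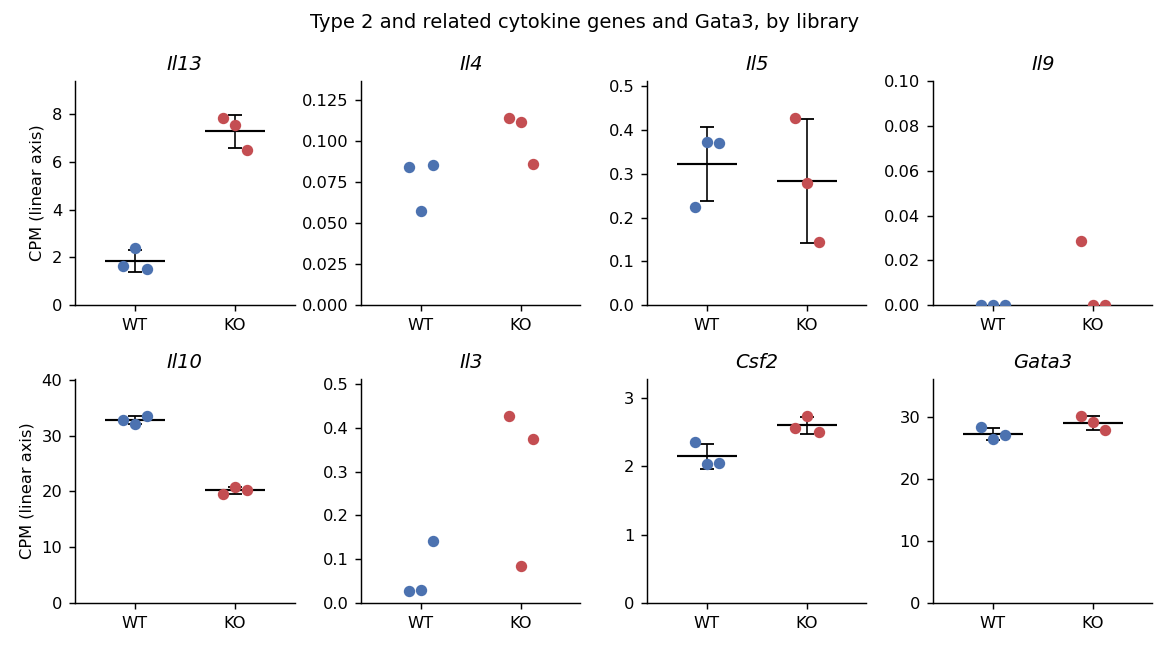
Points are the CPM of single libraries labelled WT (blue) and KO (red), in replicate order from left to right, on linear axes that start at 0; bars are the mean and SD of 3 libraries, left out for Il4, Il9 and Il3, which are under the count filter. Il13 is above the WT range in all 3 KO-labelled libraries and Il10 below it, while Gata3 and Il5 overlap.

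In the fit over all genes 2 of the 5 tested genes of the set passed the threshold, where 17.3% of all tested genes did. Il13 was the 1 higher, beside 7.23% of all tested genes, and Il10 the 1 lower, beside 10.1%. The libraries of the labels did not overlap for 3 of the 5, where this held for 32.1% of all tested genes. Il13 and Csf2 were the 2 with KO above WT, beside 15.5% of all tested genes, and Il10 the 1 with KO below WT, beside 16.7%. Because the set was chosen with this comparison known, nothing is read from these shares. The median log2 fold change of the 5 was 0.090, and that of all tested genes 0.0014.

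Levels of different genes were compared as FPKM, counts scaled to library size and gene length. In WT-labelled libraries Il10 came first at 15.6 ± 0.303 FPKM, then Gata3 at 6.94 ± 0.253, Csf2 at 1.67 ± 0.146 and Il13 at 1.54 ± 0.380 (SD, n = 3 each). The ranges of Csf2 (1.59 to 1.84) and Il13 (1.27 to 1.97) overlapped, so these neighbours in the order did not differ beyond their spread. Il5 followed at 0.210 ± 0.055, Il4 at 0.129 ± 0.027 and Il3 at 0.0777 ± 0.0768 FPKM; Il3 overlapped with both, and Il5 and Il4 were separated only by 0.146 against 0.145 FPKM. In KO-labelled libraries Il10 (9.65 ± 0.311) and Gata3 (7.44 ± 0.300) again led, followed by Il13 at 6.06 ± 0.581 and Csf2 at 2.03 ± 0.091, with no overlap between any of these 4. Il3, Il5 and Il4 overlapped with each other, at 0.349, 0.185 and 0.178 FPKM. Among genes with any count, 48.8% had a lower mean FPKM than Il13 in WT-labelled libraries and 63.9% in KO-labelled ones.

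The make-up of the summed level of the 7 cytokine genes differed more between the labels than the sum. Per length, the sum was 19.2 FPKM in WT replicate 1, 19.2 in WT replicate 2, 19.3 in WT replicate 3, 18.9 in KO replicate 1, 18.8 in KO replicate 2 and 17.7 in KO replicate 3, so KO-labelled libraries lay below WT-labelled ones. As CPM, where longer transcripts weigh more, it was 37.0 to 37.7 and 29.8 to 31.6. Il10 made up 79.5% to 82.4% of the FPKM sum in WT-labelled and 49.4% to 54.6% in KO-labelled libraries. Il13 made up 6.56% to 10.3% of the FPKM sum in WT-labelled and 30.5% to 34.5% in KO-labelled libraries. The ratio of Il13 to Il10, in FPKM within a library, was 0.0797 to 0.129 and 0.559 to 0.699. Set against Gata3 in the same way, Il13 was at 0.185 to 0.292 and 0.758 to 0.843.

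**Figure D2:**
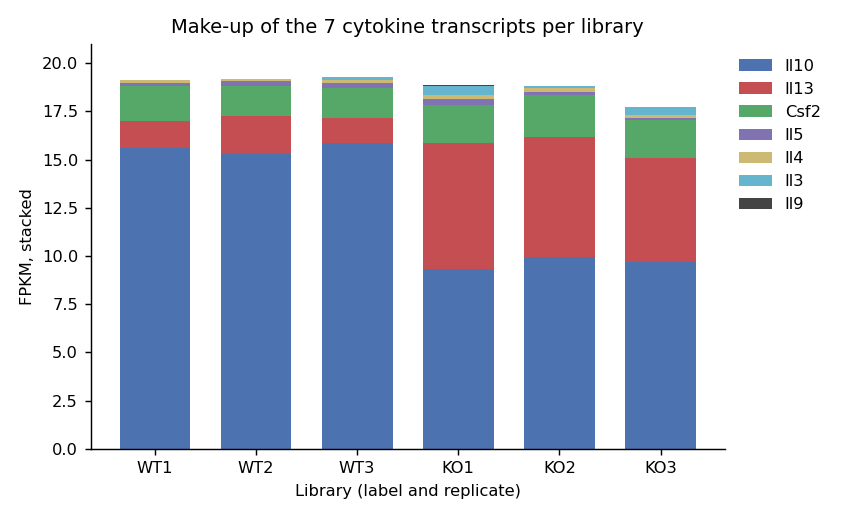
Stacked bars give the FPKM of the 7 cytokine genes in each library, labelled WT or KO with the replicate number, on a linear axis from 0. The bars reach 17.7 to 19.3 FPKM in all libraries, and the Il13 part is 6.56% to 10.3% of the bar in WT-labelled and 30.5% to 34.5% in KO-labelled libraries.

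Position was a property that the choice of genes did not use. Il4, Il13, Il5, Csf2 and Il3 lie on mouse chromosome 11 in this order in RefSeq on GRCm38.p6, with the DNA repair gene Rad50 between Il13 and Il5 and the interferon regulatory factor gene Irf1 just beyond Il5. Rad50, whose gene body holds control elements of the type 2 locus, was at 98.7 ± 2.54 CPM in WT-labelled libraries (SD, n = 3) and did not pass (log2 fold change -0.054 ± 0.039, SE; edgeR adjusted p = 0.391). Kif3a, a kinesin motor gene on the other side of Il4, rose from 4.37 ± 0.737 to 6.23 ± 0.523 CPM, and Septin8, a cytoskeletal GTPase gene beyond it, from 2.59 ± 0.475 to 4.10 ± 0.164 (SD, n = 3 each; edgeR adjusted p = 0.0189 and 0.0158). Irf1 fell by 0.39 on the log2 scale and Gm12216, a gene model listed after it, by 0.80 (edgeR adjusted p = 5.74e-11 and 0.00334). P4ha2, a collagen prolyl hydroxylase gene next to Csf2, fell by 0.83 ± 0.249 (SE; edgeR adjusted p = 0.0226), and Fnip1, beyond Il3, did not pass (-0.17; edgeR adjusted p = 0.0612, 0.0457 without KO replicate 1, 0.0444 in the robust fit and 0.0365 with no low-count filter).

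Of 12 tested neighbours within 250 kb of these 5 genes, 2 were higher and 3 lower, where 17.3% of all tested genes passed. The calls of Kif3a, Septin8 and P4ha2 were lost in several settings, while the direction held in each of these. By edgeR, Kif3a had an adjusted p of 0.117 with WT replicate 1 left out, 0.0556 with WT replicate 2 and 0.0591 with KO replicate 2 left out, at log2 fold changes of 0.39, 0.53 and 0.44. Septin8 had 0.0800, 0.0545 and 0.0626 with WT replicate 1, WT replicate 2 and KO replicate 1 left out in turn, at 0.55, 0.64 and 0.63. P4ha2 was lost without WT replicate 1, WT replicate 3, KO replicate 1 or KO replicate 3 (0.0738, 0.163, 0.0812 and 0.0762), at -0.84, -0.65, -0.79 and -0.57. With all libraries, the limma-trend fits of log2(FPKM + 0.1) and log2(FPKM + 1) lost Kif3a (0.0757 and 0.0521) and P4ha2 (0.0920 and 0.0909) too. Around the other 3 genes, on chromosomes 1, 2 and 13, the nearest tested genes did not pass: Il24 and Mapkapk2 beside Il10 (-0.30 and -0.065), Taf3 beside Gata3 (0.013) and Smad5 beside Il9 (0.12). Mapkapk2 passed without KO replicate 3, at an edgeR adjusted p of 0.0168, and Taf3 turned to -0.032 without WT replicate 1 and to -0.013 without KO replicate 1. Rassf5, near Il10, passed at 0.086 with an edgeR adjusted p of 0.0423, and lost the call without WT replicate 1, 2 or 3 or KO replicate 1 or 2 (0.0640, 0.189, 0.0688, 0.0945 and 0.108).

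**Figure D3:**
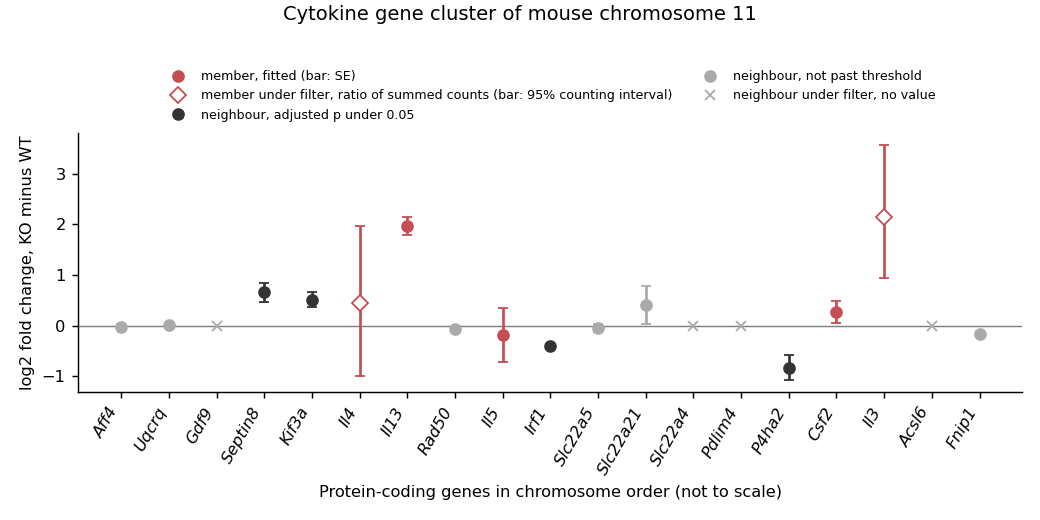
Each position is a protein-coding gene in chromosome order, not to scale, and the vertical axis is the log2 fold change, KO minus WT; red circles are Il13, Il5 and Csf2 with SE, open diamonds Il4 and Il3 as ratios of summed counts with 95% counting intervals, black and grey circles neighbours past or not past an adjusted p of 0.05, and crosses mark genes under the count filter, which have no value. Il13 stands at 1.97, with Rad50 beside it at -0.054.

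Receptor chains through which these cytokines act were lower where they passed the threshold. Among all tested genes, 10.1% were lower and 7.23% higher. Of 7 tested chain genes, 4 were lower and 0 higher by edgeR, with a median log2 fold change of -0.12. They were Il4ra, the shared chain of the IL-4 and IL-13 receptors, which went from 217 ± 3.99 to 186 ± 4.56 CPM (SD, n = 3 each), Il10ra and Il10rb, the chains of the IL-10 receptor, and Il2rg, the common γ chain. Their log2 fold changes were -0.22 ± 0.029, -0.29 ± 0.037, -0.21 ± 0.045 and -0.11 ± 0.024 (SE; edgeR adjusted p = 5.62e-06, 3.09e-06, 0.00198 and 0.00174). The IL-13 receptor chain gene Il13ra1 was almost undetected, at 0.00948 and 0.0281 CPM. Il3ra (-0.12), the GM-CSF receptor gene Csf2ra (0.31) and Csf2rb2 (0.91 ± 0.620, SE) did not pass. These genes are named after their values were seen. The γδ T cells held few counts of the shared β chain gene Csf2rb, 0.237 and 0.199 CPM.

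Transcription factors that favour GATA3 or type 2 cytokine expression moved in both directions. Of 23 tested, 6 were higher and 8 lower by edgeR, with a median log2 fold change of -0.0046. Among all tested genes, 7.23% were higher and 10.1% lower. Nfil3, a basic leucine zipper factor gene, rose from 60.1 ± 0.693 to 80.3 ± 2.80 CPM, Ets1 from 405 ± 7.13 to 500 ± 9.20 and Satb1, a chromatin organiser gene, from 150 ± 2.86 to 182 ± 5.79 (SD, n = 3 each). Egr2, an early T cell receptor response factor gene that PLZF-expressing cells depend on, fell by 0.86 ± 0.065 on the log2 scale, Irf4, a factor gene needed for T helper 2 cells, by 0.33 ± 0.042 and Tcf7, which can raise Gata3, by 0.32 ± 0.029 (SE). By edgeR, Egr2 had the smallest adjusted p of the 6 (8.48e-10) and Irf4 the highest (3.79e-06). Maf, Bhlhe41, Stat6 and Zbtb16 are given from this list after their values were seen. Bhlhe41, a basic helix-loop-helix repressor gene, had 26, 14 and 19 counts across WT replicates 1 to 3 and 87, 83 and 86 across KO replicates 1 to 3, and rose by 2.11 ± 0.304 on the log2 scale (SE). Maf, which activates Il4 and Il10, had 389, 453 and 451 counts across the WT and 309, 291 and 244 across the KO replicates, a log2 fold change of -0.62 ± 0.107 (SE; edgeR adjusted p = 0.000170). Stat6, the factor that carries IL-4 and IL-13 signals, did not pass, at 168 ± 4.23 and 174 ± 2.41 CPM. Zbtb16, the PLZF gene, had 7, 21 and 15 counts across the WT and 25, 26 and 40 across the KO replicates; these do not overlap, but the gene did not pass (edgeR adjusted p = 0.0997).

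Factors listed as opposing the type 2 programme were also divided. Of 15 tested, 3 were higher and 6 lower by edgeR, with a median log2 fold change of -0.050. Among all tested genes, 7.23% were higher and 10.1% lower. The 6 include Bhlhe40 (-0.087 ± 0.024, SE; edgeR adjusted p = 0.0135), named after its values were seen. It was placed on this list although Bhlhe41 is on the favouring one, and its role here was not tested. Zbtb32, whose product represses GATA3, fell from 89.7 ± 3.29 to 57.2 ± 1.55 CPM, and Socs1, a feedback inhibitor of cytokine signalling, from 38.8 ± 2.08 to 29.6 ± 1.09 (SD, n = 3 each; edgeR adjusted p = 6.13e-11 and 2.27e-05). Zfpm1, which encodes FOG1, a partner that restrains GATA3, rose by 0.29 ± 0.038 on the log2 scale, and Id2, an inhibitor of E proteins, by 0.13 ± 0.025 (SE; edgeR adjusted p = 6.61e-06 and 0.000583). The 2 T-box factor genes of the type 1 programme on this list went apart, Tbx21 lower from 46.9 ± 2.16 to 33.0 ± 1.34 CPM and Eomes higher from 307 ± 4.03 to 500 ± 4.72 (edgeR adjusted p = 1.95e-07 and 6.79e-16).

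Surface and effector genes listed for type 2 lymphocytes, not all of them particular to these cells, included strong changes at both low and high levels. Of 19 tested, 5 were higher and 3 lower by edgeR, with a median log2 fold change of 0.15. Among all tested genes, 7.23% were higher and 10.1% lower. Ccl1, a chemokine gene, had 70, 42 and 67 counts across WT replicates 1 to 3 and 184, 162 and 193 across KO replicates 1 to 3. Ccr8, the gene of the receptor for CCL1, had 14, 25 and 15 counts in the WT and 53, 66 and 58 in the KO replicates. Penk, the proenkephalin gene, had 22, 10 and 21 and then 78, 63 and 58 counts. All 3 genes lay above the WT range in every KO-labelled library, with log2 fold changes of 1.59 ± 0.205, 1.70 ± 0.342 and 1.90 ± 0.343 (SE; edgeR adjusted p = 3.77e-06, 0.000870 and 0.000287). KO lay above WT in this way for 15.5% of all tested genes. The 3 were named by smallest p, so their separation is no further result. Icos, a costimulatory receptor gene, rose by 0.18 ± 0.036, while Il2ra, a chain of the IL-2 receptor, fell by 0.32 ± 0.024 and Lif, the leukaemia inhibitory factor gene, by 1.24 ± 0.031 (SE; edgeR adjusted p = 0.000861, 8.09e-10 and 5.95e-18). Lif went from 229 ± 5.60 to 97.5 ± 0.801 CPM (SD, n = 3 each).

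Other T cell cytokine and chemokine genes gave 5 higher and 6 lower of 15 tested by edgeR, with a median log2 fold change of 0.0055. Among all tested genes, 7.23% were higher and 10.1% lower. Xcl1, a chemokine gene, rose by 0.49 ± 0.029. Ccl5, Osm, Tnf, Ccl3 and Ccl4, inflammatory cytokine and chemokine genes, fell by 1.77, 0.87, 0.68, 0.62 and 0.56 on the log2 scale (edgeR adjusted p from 2.78e-12 for Ccl5 to 4.51e-09 for Tnf). Of all 5 lists, 42.1% to 73.3% of tested genes passed, against 17.3% of all tested genes; the lists were drawn up with results of these data known.

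**Figure D4:**
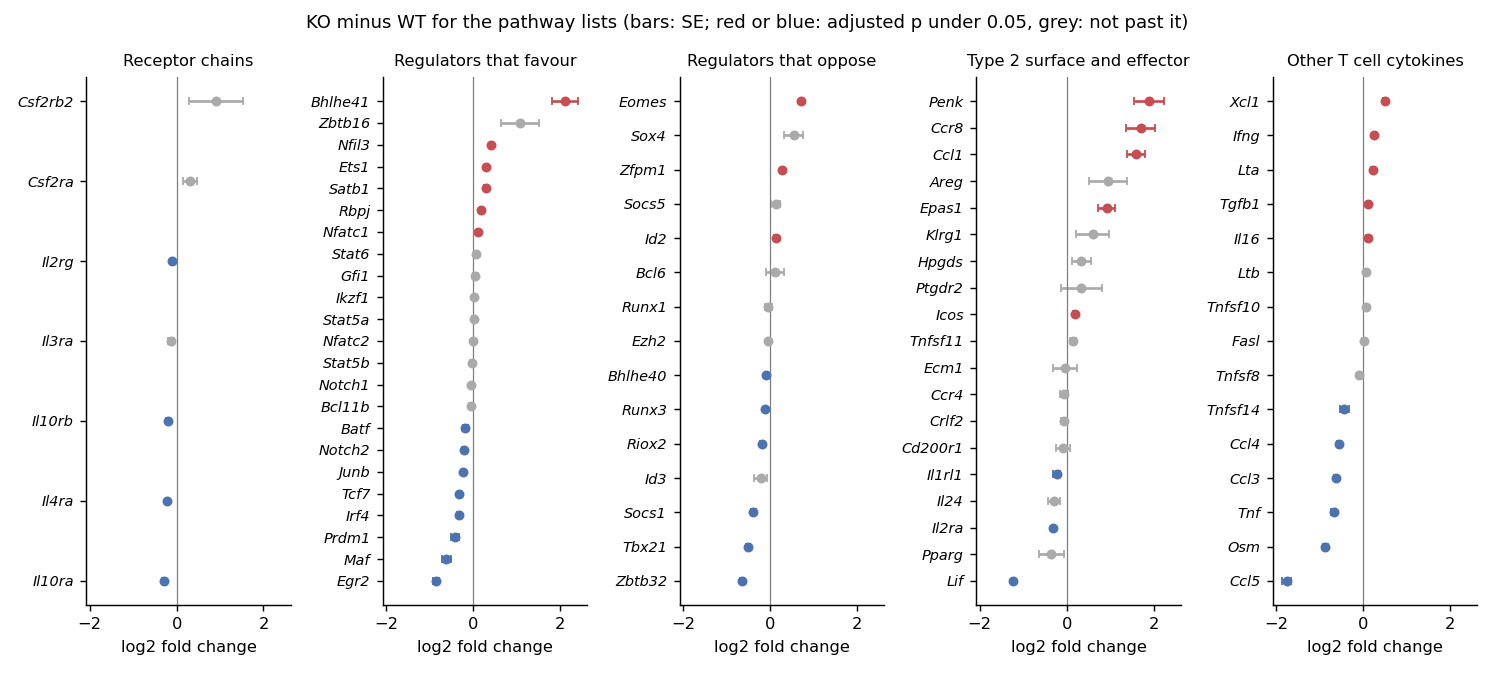
Each point is a tested gene of 1 list, at its log2 fold change, KO minus WT, with SE; red and blue points passed the threshold, higher or lower, and grey ones did not. All 4 coloured receptor chains lie below 0, while the grey ones Csf2rb2 and Csf2ra lie above it. The other 4 lists hold coloured points on both sides.

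Genes whose 6 log2 CPM values, centred on the mean of the gene, lay closest to those of a gene of the set were sought among 10413 other genes of at least 2 CPM. For Il13 these were Spsb1, Tle1 and Tspan9, at Euclidean distances of 0.455, 0.619 and 0.625. For Il10 they were Spry2, Gbp6 and Itgb7, at 0.075, 0.077 and 0.089. For Csf2 they were Il20rb, Zkscan14 and Fastkd3 (0.081, 0.083 and 0.102), and for Gata3 Naip2, Cluh and Zfp148 (0.045, 0.047 and 0.047). The larger distances around Il13 go with its larger difference between labels and its wider spread. The distance takes in the difference between labels, which was known when the set was chosen. Spsb1, Tle1 and Tspan9 had log2 fold changes of 2.06, 2.40 and 1.54, and Spry2, Gbp6 and Itgb7 of -0.72, -0.70 and -0.66.

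Mast cells and basophils, which also make IL-4 and IL-13, were looked for by their markers. Of 11 marker genes with a row, 3 were tested and 1, Kit, was lower (17.4 ± 1.54 to 13.5 ± 0.671 CPM; SD, n = 3 each; edgeR adjusted p = 0.00249), and none was at 0 in all 6 libraries, although Mcpt4 and Tpsb2 each had 1 count in the 6 libraries together. Of all tested genes, 10.1% were lower and 7.23% higher. The marker list summed to 18.6 to 21.1 CPM in WT-labelled and 15.2 to 17.3 in KO-labelled libraries, most of it Kit. Without Kit, a choice made after the values were seen, the other 10 summed to 1.96 to 2.53 and 2.43 to 3.30 CPM. Of these 10, 4 lay above the WT range in every KO-labelled library, beside 15.5% of all tested genes. That share covers only genes past the count filter, and of the 10 only Mcpt8 and Cpa3 were past it, so the 2 are not alike. One of the 4 was Fcer1a, a chain of the IgE receptor, with 1, 0 and 0 counts across WT replicates 1 to 3 and 10, 7 and 5 across KO replicates 1 to 3. Another was Prss34, a basophil protease gene, with 6, 4 and 4 and then 25, 9 and 10 counts, and the others were Cpa3 and Hdc. The basophil protease gene Mcpt8 overlapped, at 1.19 ± 0.393 and 1.07 ± 0.236 CPM. Their part in the Il13 values was not tested.

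Markers of other cells were summed in the same way, and most sums were set by 1 or 2 genes. Calls in these lists stand beside 10.1% of all tested genes lower and 7.23% higher. Eosinophil markers (4 with a row, 1 tested, 0 called) summed to 0.288 to 0.731 CPM in WT-labelled and 0.142 to 0.633 in KO-labelled libraries, with Siglecf the most abundant. Markers of innate lymphoid cells of type 2 (8 with a row, 4 tested, 2 lower) summed to 59.9 to 66.1 and 43.6 to 49.3 CPM, most of it Rora and Il1rl1. Without these, a choice made after the values were seen, the other 6 summed to 1.25 to 1.93 and 1.93 to 2.45 CPM, and each of the 6 overlapped between the labels. Rora was lower at 41.0 ± 1.93 and 26.6 ± 1.80 CPM (SD, n = 3 each; edgeR adjusted p = 4.13e-08). Il1rl1 passed as lower at an edgeR adjusted p of 0.0283, which became 0.149, 0.0742 and 0.103 with WT replicate 1, WT replicate 2 and KO replicate 3 left out in turn, and 0.148 and 0.126 in the limma-trend fits of log2(FPKM + 0.1) and log2(FPKM + 1).

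Markers of CD4 and regulatory T cells (3 with a row, 2 tested, 1 lower, beside 10.1% of all tested genes lower) summed to 11.6 to 14.2 CPM in WT-labelled and 8.77 to 9.22 in KO-labelled libraries. Most of it was Foxp3, the defining factor gene of regulatory T cells, which make IL-10; it was lower at 12.3 ± 1.01 and 8.31 ± 0.388 CPM (SD, n = 3 each; edgeR adjusted p = 0.000181). Without Foxp3 the sums overlapped, at 0.309 to 0.910 and 0.455 to 0.863 CPM. B cell markers (8 with a row, 3 tested, 0 called) summed to 7.48 to 7.85 and 6.26 to 8.86 CPM, mostly Cd79b and Bank1. Myeloid markers (9 with a row, 1 tested, 0 called) summed to 0.512 to 0.703 and 0.726 to 1.11 CPM. Of these Xcr1 had 0.282 ± 0.240 and 0.769 ± 0.322 CPM, and the other 8 summed to 0.197 to 0.575 and 0.0569 to 0.307. Xcr1 did not pass (edgeR adjusted p = 0.0834), but did with KO replicate 2 left out (0.0216) and, with all libraries, with no low-count filter (0.0311). None of these lists held a gene at 0 in all 6 libraries, and their part in the values of Il10 and Il13 was not tested.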

How the data were processed

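Per the labels' protocols, TRIzol RNA of spleen γδ T cells went into libraries made with a VAHTS Universal V6 kit. The submitters' processing notes name fastp, HISAT2, HTSeq and GRCm39; versions, settings, annotation and strand use remain not given in the sources used. The authors deposited raw counts per gene symbol, and FPKM that equal these counts over the column total and 1 length per gene (all 19390 genes, tolerance 0.01 bp).

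Counts of the 3 WT-labelled and 3 KO-labelled libraries entered edgeR 4.0.16 under R 4.3.3 (scaling by TMM, filterByExpr with a minimum count of 10, glmQLFit and glmQLFTest on the label, Benjamini-Hochberg over 12810 genes, threshold 0.05). SE was taken as the size of the log2 fold change divided by √F. The filter left out 0.0337% to 0.0383% of counts. No pair of libraries agreed within sampling noise (chi-square over degrees of freedom at least 3.26). On counts simulated for KO against WT over 12810 genes, 50.7%, 68.7% and 83.3% of genes changed 1.2-fold, 1.5-fold and 2-fold were recovered, and 3.57% of calls were false. The changed genes numbered 67, 67 and 66, far fewer than the calls in the data, and the spread of each gene was set by its level alone. These rates belong to the simulation and are not rates of the data.

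The 8 genes and the lists were chosen with earlier results of these data known. Named from each list were up to 6 genes past the threshold by smallest p, from each marker list the 2 most abundant tested genes, called and nearest neighbours within 250 kb (RefSeq, GRCm38.p6), and the 3 genes nearest in pattern (log2 of CPM + 0.1, mean at least 2 CPM); other genes are said to be chosen later or are given as levels only. Alternatives were RLE and upper-quartile scaling, DESeq2 1.42.0, limma-voom and limma-trend (limma 3.58.1) on log2(FPKM + 0.1) and log2(FPKM + 1), other low-count filters, a robust fit, the replicate number as a block, and each library left out.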

Additional observations from a re-analysis of the deposited data

How the results depend on the processing

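Over 16 alternatives Il13 stayed higher and Il10 lower past the threshold, and Csf2 and Gata3 did not pass it. Their log2 fold changes ran from 1.48 to 2.19, -0.72 to -0.64, 0.18 to 0.35 and 0.063 to 0.12. Because the set was chosen with this comparison known, these calls describe how the values depend on the settings and are no test of the genes. The low ends for Il13 (1.48) and Il10 (-0.64) came from log2(FPKM + 1), whose pseudocount shrinks low genes. With 1 library left out, genes of the set called higher numbered 1 to 2 (Il3 without KO replicate 2), and neighbours called higher 0 to 3. Calls over all genes were 666 to 1091 higher and 923 to 1359 lower, and the replicate block gave 792 and 1177. The replicate numbers are shared by name only: same-numbered libraries deviated from their label means with correlations of 0.055, -0.022 and -0.039, not every library was closest to its own number, and the block changed no call within the set; of the other genes named it lost Rassf5 (adjusted p = 0.0707) and gained Xcr1 (0.0449). Of 64 further named genes, 47 kept direction and side of the threshold throughout. Direction changed in genes that did not pass: Mcpt8 (-0.32 to 0.16), Siglecf (-0.74 to 0.26), Cd4 (-0.47 to 0.17), Bank1 (-0.29 to 0.27) and Taf3 (-0.032 to 0.056) with 1 library left out, and Bank1 by limma-voom (-0.055), the replicate block (-0.023) and log2(FPKM + 0.1) (-0.012); the cause was not tested. Depth limits Il4, Il9, Il3 and Il5, for which 1 count is worth 0.0279 to 0.0288 CPM.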
